A study of Homo sapiens with 6 samples.

Results

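The 45 genes described here belong to the integrated stress response and the unfolded protein response, and they were measured by bulk RNA sequencing in A549 cells, an established human lung adenocarcinoma line. They were listed by symbol, out of 58676 genes in the deposited matrix, and the list was chosen by measured values: it was already known that several of them stood high in the replicate 3 library of both groups. Values that separate replicate 3 from the other libraries are therefore a description and carry no test. All 45 symbols were found once each, and all 45 passed the filter on low values, set at 1 or more in 3 or more of the 6 libraries, which ATF3 and ASNS met with the lowest levels of the list.

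The study compared A549 Rec, A549 cells that were transfected with a plasmid holding human recoverin cDNA (RCVRN, a calcium-binding protein of photoreceptors), with A549 MOCK, the same cells carrying the empty plasmid, in 3 replicates each. The methods describe a myc-tagged insert in a pMXs-puro vector, delivered by retrovirus and followed by puromycin selection; A549 MOCK carried the empty vector, and the methods say neither whether it met the drug nor whether either line was a single clone. Total RNA was taken from confluent flat cultures, after 6 days according to the labels, in a high-glucose medium with serum and methylcellulose that was the same for both groups. The labels do not say whether replicates came from separate cultures, so the p-values below measure only the spread between these libraries, which may be technical.

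Cells respond to stress by slowing protein synthesis and by changing which genes are read. In the integrated stress response, 4 kinases that sense different troubles (EIF2AK1 or HRI, heme shortage and mitochondrial stress; EIF2AK2 or PKR, double-stranded RNA; EIF2AK3 or PERK, unfolded protein in the endoplasmic reticulum (ER); EIF2AK4 or GCN2, amino acid shortage) phosphorylate the translation factor eIF2α. General translation then drops while the transcription factor ATF4 is made, and ATF4 turns on CHOP (the product of DDIT3) and genes for amino acid supply. The unfolded protein response joins PERK to a pair of other ER sensors, IRE1 (ERN1), which splices XBP1 mRNA, and ATF6, which is cut to release a factor that drives ER chaperones. Much of this control acts on translation, splicing and protein cleavage, which gene-level mRNA values do not record.

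Promoter elements followed the arms only in part. Of the 45 genes, 41 had an entry among 27305 RefSeq promoters (GRCh38.p14), and the 250 bases before each start were searched on both strands for 5 elements. The C/EBP-ATF element that ATF4 and CHOP dimers can bind, TGATGNAA, was present in 3.19% of all promoters and in 5 of the 41, namely ATF3, PPP1R15B, CHAC1, ASNS and HERPUD1. The cAMP response element TGACGTCA was in 1.77% of promoters and in 1 member, PPP1R15A. The ER stress element of ATF6 and XBP1, CCAAT and CCACG with 9 bases of any kind between them, was in 0.0806% of promoters and in 6 members (XBP1, HSPA5, HSP90B1, CRELD2, CALR and CANX). The second ER stress element, ATTGG, 1 base of any kind and CCACG, was in 0.0513% and in 3 members (HERPUD1, SDF2L1 and HYOU1), and the unfolded protein response element TGACGTGG was in 0.667% and in 1 member (HYOU1). A match is only a description of these letters. DDIT3, CEBPG, TRIB3, SESN2, MTHFD2, GDF15, STC2 and ERN1 stood high in replicate 3 and held none of the 5 elements. The first 3 stretches below are shown because their genes stood high there and held an element. The last 2 are shown because their genes head the IRE1-XBP1 and ATF6 chaperone arms. Each is written 5′ to 3′ on the strand of its gene, with the element in capitals; in CHAC1 the capitals are the reverse complement of the element. ATF3 lies at chr1:212565176-212565263 (plus strand), PPP1R15A at chr19:48872352-48872381 (plus) and CHAC1 at chr15:40953251-40953280 (plus), the last 2 inside a longer annotated first exon and so shown over 30 bases only. XBP1 lies at chr22:28800598-28800661 (minus) and HSPA5 at chr9:125241383-125241449 (minus).
ATF3: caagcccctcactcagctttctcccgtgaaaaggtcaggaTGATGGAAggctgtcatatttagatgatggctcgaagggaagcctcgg
PPP1R15A: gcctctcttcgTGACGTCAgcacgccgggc
CHAC1: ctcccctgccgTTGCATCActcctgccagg
XBP1: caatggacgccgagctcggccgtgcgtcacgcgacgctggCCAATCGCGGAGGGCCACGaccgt
HSPA5: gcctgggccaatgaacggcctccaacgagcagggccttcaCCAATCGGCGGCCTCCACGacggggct

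Levels are given as TPM, a transcript's share of the library scaled to 1000000 and corrected for gene length, after the deposited values were rescaled to 1000000 without the 37 genes of the mitochondrial chromosome (chrM). The rescaling matters here because chrM genes held 34.5% of the deposited TPM in A549 MOCK replicate 3 and 26.9% in A549 Rec replicate 3, against 13.3% to 17.3% in the other 4 libraries. RCVRN was at 0 in the 3 A549 MOCK libraries and at 389.5, 390.0 and 464 TPM in A549 Rec as labelled. The 7 epithelial markers were at 1 TPM or above in all 6 libraries, although EPCAM was low at 1.34 to 3.53 TPM. Summed levels stayed at or below 8.73 TPM for 5 leukocyte markers (CD14 made up most of that, and 2 were at 0), 6.32 for 5 fibroblast markers, 1.48 for 4 endothelial markers and 0.76 for 5 photoreceptor markers. The reads behind the table, recovered from the steps in the TPM values, came to 15177371 to 18564988 per library.

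Transcripts of the ATF4-CHOP arm, led by DDIT3, were mostly highest in replicate 3 of both groups, and those of the ER chaperones were not. DDIT3, which encodes CHOP, was at 43.6, 53.9 and 368 TPM in A549 MOCK replicates 1, 2 and 3 and at 60.2, 58.8 and 228 TPM in A549 Rec (chr12:57516588-57521737, minus strand). The replicate 3 level was 7.54 times the mean of replicates 1 and 2 in A549 MOCK and 3.83 times in A549 Rec, and both stood far above the other 4 libraries, which lay close together. On the log2(TPM + 1) scale, averaged over the groups, the difference was 2.41, the 15th highest of 17999 genes. DDIT3 shares part of its locus with MARS1 on the opposite strand and with an unnamed gene on its own strand, and how the counting treated such overlaps is not given in the sources used here; MARS1 itself was 0.44 higher in replicate 3 on the log2 scale.

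ATF4, the factor upstream of DDIT3, was at 361, 347 and 536 TPM in A549 MOCK and 401, 387 and 525 TPM in A549 Rec (chr22:39519695-39522685, plus strand). Both replicate 3 libraries were the highest of the 6, by log2 differences of 0.60 and 0.41 within A549 MOCK and A549 Rec. Its mRNA thus differed by 1.51 and 1.33 times where that of DDIT3 differed by 7.54 and 3.83 times. The protein level of ATF4, which is set largely at translation, was not measured.

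ATF3, a stress-induced factor of the same family, was nearly silent outside replicate 3. It was at 0.63, 0.12 and 6.2 TPM in A549 MOCK and 1.02, 0.98 and 3.99 TPM in A549 Rec (chr1:212565334-212620777, plus strand), from 11, 2 and 92 reads and 17, 20 and 62 reads. Its replicate 3 values were above the other 4, and no ratio is given because the low values rest on so few reads. CEBPG, a dimer partner of ATF4, was at 49.7, 49.8 and 115 TPM in A549 MOCK and 64.1, 61.4 and 92.1 TPM in A549 Rec, again highest in both replicate 3 libraries. NUPR1, a small chromatin-associated stress protein, was highest there too, with log2 differences of 0.72 and 0.22. ATF5 and CEBPB did not follow: ATF5 differed by 0.02 and 0.27, and CEBPB, another CHOP partner, ran from 440.4 to 505 TPM with replicate 3 inside the range of the others.

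**Figure D1:**
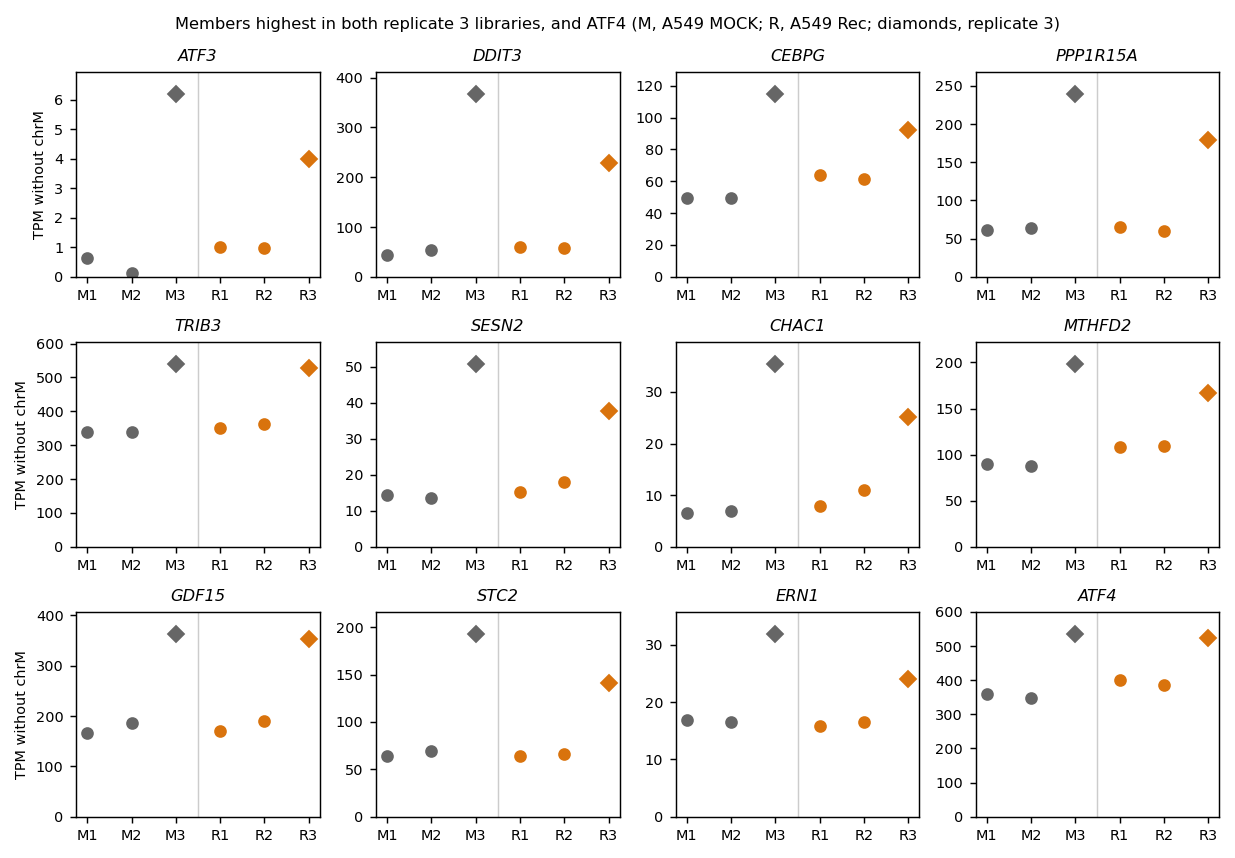
Level of the 11 members that stood highest in both replicate 3 libraries by at least 0.5 on the log2 scale in each group, and of ATF4, with the 6 libraries on the x axis (grey, A549 MOCK; orange, A549 Rec; diamonds, replicate 3) and TPM without chrM genes on the y axis, from 0, 1 panel per gene. In each panel the replicate 3 points of A549 MOCK and A549 Rec sit above the 4 other points; DDIT3 reaches 368 and 228 TPM against 43.6 to 60.2 TPM.

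Of the 6 brakes and feedback genes downstream of ATF4 and CHOP, 5 were likewise above the other 4 libraries in replicate 3, and DDIT4 was the exception. Of all tested genes 26.9% were above. PPP1R15A, which encodes GADD34, the stress-induced subunit that returns eIF2α to its unphosphorylated state, was at 61.3, 64.5 and 239.5 TPM in A549 MOCK and 65.6, 59.8 and 179.8 TPM in A549 Rec (chr19:48872392-48876057, plus strand). Replicate 3 was 3.81 and 2.87 times the mean of the other two. PPP1R15B, which encodes the constitutive counterpart, differed by less, from 66.3 to 73.2 TPM in the lower libraries to 104 and 89.9 TPM in replicate 3.

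CHAC1, a CHOP target that degrades glutathione, was at 6.47, 6.90 and 35.4 TPM in A549 MOCK and 8.00, 10.9 and 25.1 TPM in A549 Rec. SESN2, which restrains the growth kinase mTORC1, was at 14.2, 13.5 and 50.8 TPM in A549 MOCK and 15.2, 17.9 and 37.8 TPM in A549 Rec. In both genes the replicate 3 values of either group lay above all 4 other libraries. TRIB3, a pseudokinase that feeds back on ATF4 and CHOP, was at 339, 339.6 and 539.9 TPM in A549 MOCK and 350.3, 362 and 529 TPM in A549 Rec.

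DDIT4, which encodes the mTORC1 inhibitor REDD1, behaved differently in the groups. It was at 811, 795 and 1307 TPM in A549 MOCK and at 911, 955 and 887 TPM in A549 Rec. Replicate 3 was thus the highest of A549 MOCK and the lowest of A549 Rec, and the difference between the groups in this respect was not tested.

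Among the enzymes of amino acid and folate metabolism, MTHFD2, a mitochondrial folate enzyme, stood out with 89.9, 87.6 and 198 TPM in A549 MOCK and 108, 109 and 167 TPM in A549 Rec. ASNS, asparagine synthetase, was scarce at 1.13, 1.08 and 6.29 TPM in A549 MOCK and 1.41, 1.24 and 2.16 TPM in A549 Rec, from 20 to 37 reads in every library but A549 MOCK replicate 3, which had 103. Its locus overlaps an unnamed gene on the same strand and the genome holds 4 named pseudogenes of it, so its count is uncertain. MTHFD2 has 7 named pseudogenes, and PSAT1 and ATF4 have 4 each. How reads that map to several places were treated is not given for these genes either. The serine pathway enzymes differed little: PSAT1 differed in replicate 3 by 0.40 and 0.12, PSPH by 0.09 and -0.01, and SHMT2, which passes serine carbon to folate, by 0.17 and 0.07. PHGDH, the first enzyme of the serine pathway, was 0.28 higher in replicate 3 of A549 MOCK and 0.44 lower in that of A549 Rec.

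GDF15 and STC2 encode secreted proteins, a stress hormone and a glycoprotein. GDF15 was at 167, 187 and 364 TPM in A549 MOCK and 171, 189 and 354 TPM in A549 Rec, ratios of 2.05 and 1.96 that were closer to each other than those of the other strongly differing genes. STC2 was at 63.8, 69.0 and 193 TPM in A549 MOCK and 64.2, 66.5 and 141 TPM in A549 Rec. VLDLR, a lipoprotein receptor, had log2 differences of only 0.15 and 0.13.

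Counted over the 22 genes of the ATF4-CHOP arm, both replicate 3 values exceeded all 4 others in 17 and lay below them in 0. Over all 17999 tested genes the shares were 26.9% above and 14.4% below. The median replicate 3 difference of the arm was 0.56 (0.71 in A549 MOCK, 0.43 in A549 Rec), beside 0.08 over all tested genes. Under the stricter rule, outside the other 4 and by at least 0.5 on the log2 scale in each group, 10 of the 22 (11 of the 45, with ERN1) were higher and 0 lower, where 3.55% of all tested genes were higher and 1.31% lower. On TPM as deposited, with chrM genes kept, 7 of the 45 passed the stricter rule upward, beside 1.19% of the tested genes. These counts describe genes that were picked with this contrast in view, and nothing further is read from them. ATF3, counted among the 17, the 10 and the 11, passed the filter on low values only through the replicate 3 libraries, where it was high. Its place in these counts is thus in part set by the filter. Nearest to that limit, CEBPG and ERN1 were just inside with 0.55 each in A549 Rec, while ASNS and ATF4 were just outside with 0.44 and 0.41.

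The IRE1-XBP1 arm was mixed. ERN1, the IRE1 sensor, was at 16.8, 16.5 and 31.9 TPM in A549 MOCK and 15.8, 16.5 and 24.0 TPM in A549 Rec, highest in both replicate 3 libraries. XBP1, whose mRNA IRE1 splices, was at 178, 158 and 194 TPM in A549 MOCK and 182, 174 and 199 TPM in A549 Rec, with replicate 3 highest by differences of 0.21 and 0.16 (chr22:28794555-28800597, minus strand). Spliced and unspliced XBP1 cannot be separated in a gene-level table. On TPM as deposited, with chrM genes kept, the mean XBP1 difference was -0.11 and replicate 3 was lower.

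The other genes of this arm went both ways, by smaller differences than ERN1. HERPUD1, a scaffold of ER-associated degradation, was higher by 0.35 and 0.13 in replicate 3, and EDEM1, which hands misfolded glycoproteins to that pathway, by 0.06 and 0.07, so that both were above the other 4 libraries. DNAJB9, the ER co-chaperone ERdj4, was at 34.3, 34.1 and 29.7 TPM in A549 MOCK and 31.9, 28.2 and 30.1 TPM in A549 Rec, with overlapping values. DNAJC3, a co-chaperone that restrains PERK, and SEL1L, the partner of the ubiquitin ligase HRD1, were lowest in replicate 3, SEL1L by -0.15 and -0.14. In all, 4 of the 7 genes of the arm were above and 2 below the other 4 libraries, with a median difference of 0.07. Over all tested genes 26.9% were above and 14.4% below, with a median of 0.08, and nothing is read from so small a count.

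**Figure D2:**
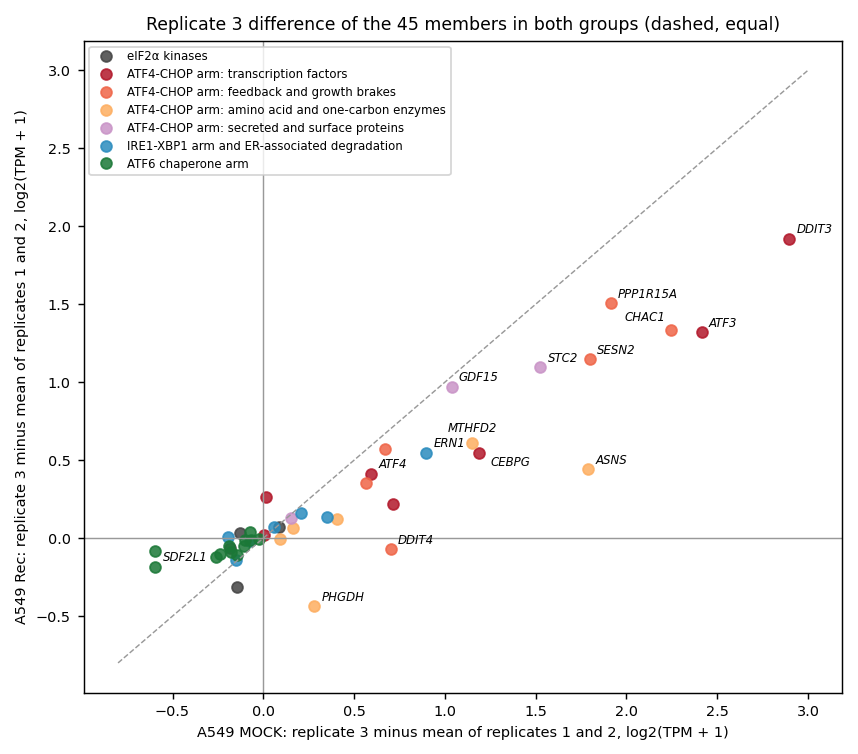
Replicate 3 minus the mean of replicates 1 and 2 on the log2(TPM + 1) scale for the 45 genes, A549 MOCK on the x axis and A549 Rec on the y axis, coloured by arm. DDIT3 lies farthest out at 2.90 and 1.92, the ATF4-CHOP genes spread to its lower left, and the genes of the ATF6 chaperone arm sit below 0, down to -0.59 in A549 MOCK, except ATF6 itself at 0.04 in A549 Rec.

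The ATF6 chaperone arm stood low. HSPA5, which encodes BiP, the main ER chaperone, was at 707, 684 and 646 TPM in A549 MOCK and 687, 666 and 653 TPM in A549 Rec (chr9:125234853-125241330, minus strand), so that replicate 3 was lowest by 0.11 and 0.05. ATF6 itself was at 34.4, 34.1 and 32.5 TPM in A549 MOCK and 35.4, 32.9 and 35.2 TPM in A549 Rec, with replicate 3 lowest in one group and between the others in the other. HSP90B1 (GRP94), the ER member of the HSP90 chaperones, differed by 0.02 or less.

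The largest differences of the arm were in MANF, a secreted ER stress protein, and SDF2L1, a partner of BiP. MANF was at 123, 131 and 83.6 TPM in A549 MOCK and 113, 115 and 108 TPM in A549 Rec. SDF2L1 was at 129, 146 and 90.9 TPM in A549 MOCK and 118, 128 and 108 TPM in A549 Rec. In both genes replicate 3 was below the other 4 libraries, by 0.59 in A549 MOCK and by 0.08 and 0.18 in A549 Rec.

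The disulfide isomerases PDIA4 and PDIA6, the BiP exchange factor HYOU1, CRELD2 and the lectin chaperone CANX were also lowest in replicate 3. That made 8 of 12 genes below and 0 above, where 14.4% of all tested genes were below and 26.9% above. The partner lectin of CANX, CALR, and the oxidase ERO1A were lower on average by 0.05 and 0.12 but overlapped. None of the 12 passed the 0.5 rule in either direction, and the median difference was -0.12. All 12 were lower in replicate 3 than the others with chrM genes kept in the total, where the median of the arm was -0.41 and that of all tested genes -0.18.

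Of the 4 eIF2α kinases, EIF2AK3 (PERK) was at 22.5, 22.1 and 23.8 TPM in A549 MOCK and 21.6, 20.3 and 22 TPM in A549 Rec, with overlapping values. EIF2AK1 (HRI) was at 177, 170.4 and 159 TPM in A549 MOCK and 177, 176 and 181 TPM in A549 Rec. EIF2AK2 and EIF2AK4 were lowest in both replicate 3 libraries, EIF2AK2 by 0.15 and 0.31 and EIF2AK4 by 0.18 and 0.07. The activity of these kinases is set by phosphorylation, which was not measured.

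The replicate 3 difference was larger in A549 MOCK than in A549 Rec for all 11 members that passed the 0.5 rule, DDIT3 among them with 2.90 against 1.92 and ASNS, just outside it, with 1.79 against 0.44. Over all 639 tested genes that passed the rule upward, 439 (68.7%) were larger in A549 MOCK. The chrM share lay in the same order, 34.5% in A549 MOCK replicate 3 and 26.9% in A549 Rec replicate 3, and its part in these differences was not tested. The methods name 2 sequencers, NovaSeq and GenoLab M, and which library ran on which is not given in the sources used here. In bulk RNA, a change in all cells and a larger one in some cells cannot be told apart, nor can fewer cells of a type and less RNA per cell.

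Genes of the same pathways outside the 45 were taken from lists made with earlier results known. Of 31 tested targets of ATF4 (tRNA synthetases, amino acid carriers and others), 16 were above and 1 below the other 4 libraries in replicate 3, with a median difference of 0.25. Over all tested genes 26.9% were above and 14.4% below, with a median of 0.08. ADM2, a peptide hormone, was at 1.99, 2.87 and 7.0 TPM in A549 MOCK and 3.11, 3.79 and 8.02 TPM in A549 Rec. CARS1, cysteinyl-tRNA synthetase, had a mean difference of 1.18 but overlapped, because A549 MOCK replicate 1 was at 5.65 TPM and A549 Rec replicate 3 at 4.01 TPM.

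Among 25 XBP1 targets of the secretory path, 5 were above and 14 below, with a median of -0.13; the coat protein gene SEC24D was -0.36 and the chaperone gene HSPA13 was 0.32. Among 16 other genes of ER-associated degradation, 2 were above and 7 below, with UBE2G2, a ubiquitin-conjugating enzyme, at 0.38 and VCP, the extracting ATPase, at -0.27. Of the 9 subunits of eIF2 and eIF2B, 2 were above and 0 below, and the largest difference was 0.26 in EIF2B4. Beside the shares over all tested genes, 26.9% above and 14.4% below, nothing is read from counts as small as these last.

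Of 12 cytosolic heat shock genes, 10 passed the filter, and of these 9 were below and 0 above. The other genes were HSPA1A, at 0 in every library, and HSPA1B, at 0.10 TPM or less. Both encode stress-inducible HSP70, and these values say nothing of them. HSPA8, the constitutive HSP70, was at 807, 737 and 344 TPM in A549 MOCK and 699.9, 666 and 504 TPM in A549 Rec, and HSPB1 (HSP27) was 0.71 and 0.67 lower in replicate 3. Among 10 mitochondrial stress genes, 1 was above and 2 below, where 26.9% of all tested genes were above and 14.4% below, so nothing is read from this count. HSPE1 (HSP10), a mitochondrial chaperonin subunit, was 0.95 and 0.53 lower in replicate 3, and DELE1, which relays mitochondrial stress to HRI, was 0.55 and 0.28 higher.

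**Figure D3:**
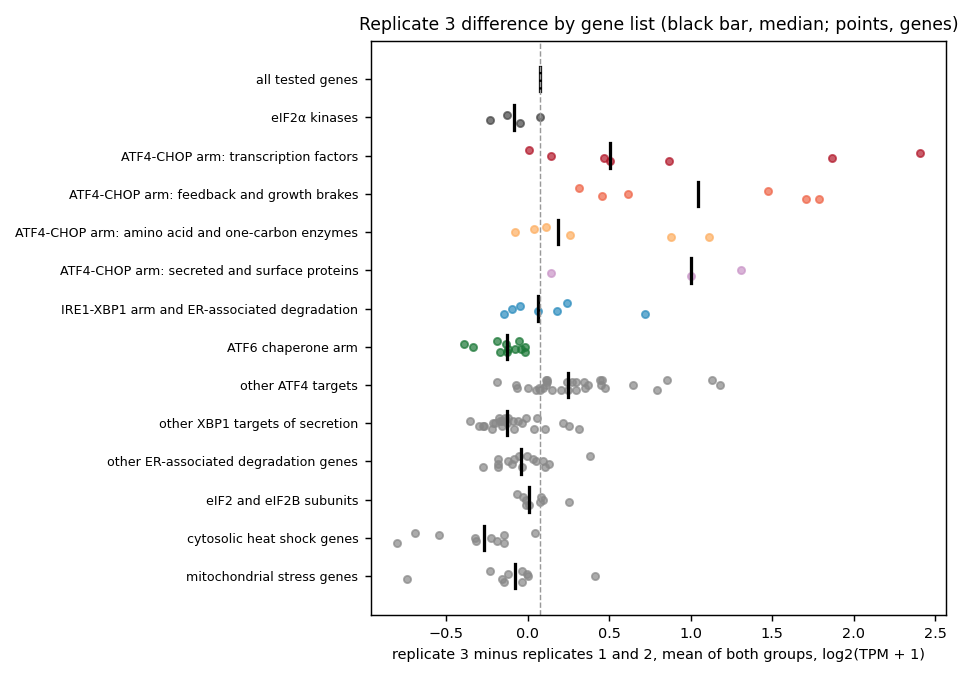
Mean replicate 3 difference on the log2(TPM + 1) scale for every tested gene of the member arms and of the other lists, 1 point per gene and 1 row per list, with a bar at each median. The ATF4 rows lie to the right (medians up to 1.05) and the ATF6 chaperone and cytosolic heat shock rows lie to the left, at -0.12 and -0.27.

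The comparison the study was built for, A549 Rec against A549 MOCK with n = 3 each, asks whether recoverin altered these pathways. By limma on log2(TPM + 1), 0 of the 45 members had an unadjusted p under 0.05 and 0 passed Benjamini-Hochberg adjustment, where the smallest adjusted p was 0.9995. Over all tested genes 2.53% had an unadjusted p under 0.05 and 0.00556% (RCVRN alone) passed an adjusted p under 0.05 with a fold change of at least 2. Without A549 MOCK replicate 3 the count at an unadjusted p under 0.05 was 6 members, beside 4.29% of all genes tested in that fit, and none passed adjustment. The log2 differences of the members ran from -0.31 in ASNS to 0.20 in ATF3.

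The smallest p values belonged to PSAT1, DNAJB9 and EIF2AK1. PSAT1, the second enzyme of the serine pathway, was at 248, 263 and 338 TPM in A549 MOCK and 315, 311 and 341 TPM in A549 Rec (283 ± 48.3 against 322 ± 16.3, SD, n = 3). The limma difference was 0.20 (SE 0.12, 95% interval -0.09 to 0.48, Benjamini-Hochberg adjusted p = 0.9995), and the groups overlapped through A549 MOCK replicate 3. DNAJB9 differed by -0.12 (95% interval -0.33 to 0.10) and EIF2AK1 by 0.08 (-0.07 to 0.22), with the same adjusted p.

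For the genes at the head of each arm, the limma intervals show what size of change these libraries could miss. ATF4 was at 415 ± 105 TPM in A549 MOCK and 437 ± 76.1 TPM in A549 Rec (SD, n = 3), a difference of 0.09 (95% interval -0.37 to 0.55). DDIT3 was at 155 ± 184 and 116 ± 97.4 TPM, a difference of -0.04 with an interval from -2.18 to 2.11, so that a large change in either direction would have lain within the spread between replicates. The DDIT3 difference became 0.93 without A549 MOCK replicate 3 and -0.68 without A549 Rec replicate 3. HSPA5 was held much more tightly: at 679 ± 30.7 and 668 ± 16.9 TPM, it differed by -0.02 (-0.16 to 0.12). The widest intervals of its arm were those of SDF2L1 (-0.44 to 0.39) and MANF (-0.36 to 0.41), nearly as wide as that of ATF4. XBP1 differed by 0.07 (-0.15 to 0.29), ATF6 by 0.03 (-0.13 to 0.20) and EIF2AK3 by -0.10 (-0.29 to 0.09).

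**Figure D4:**
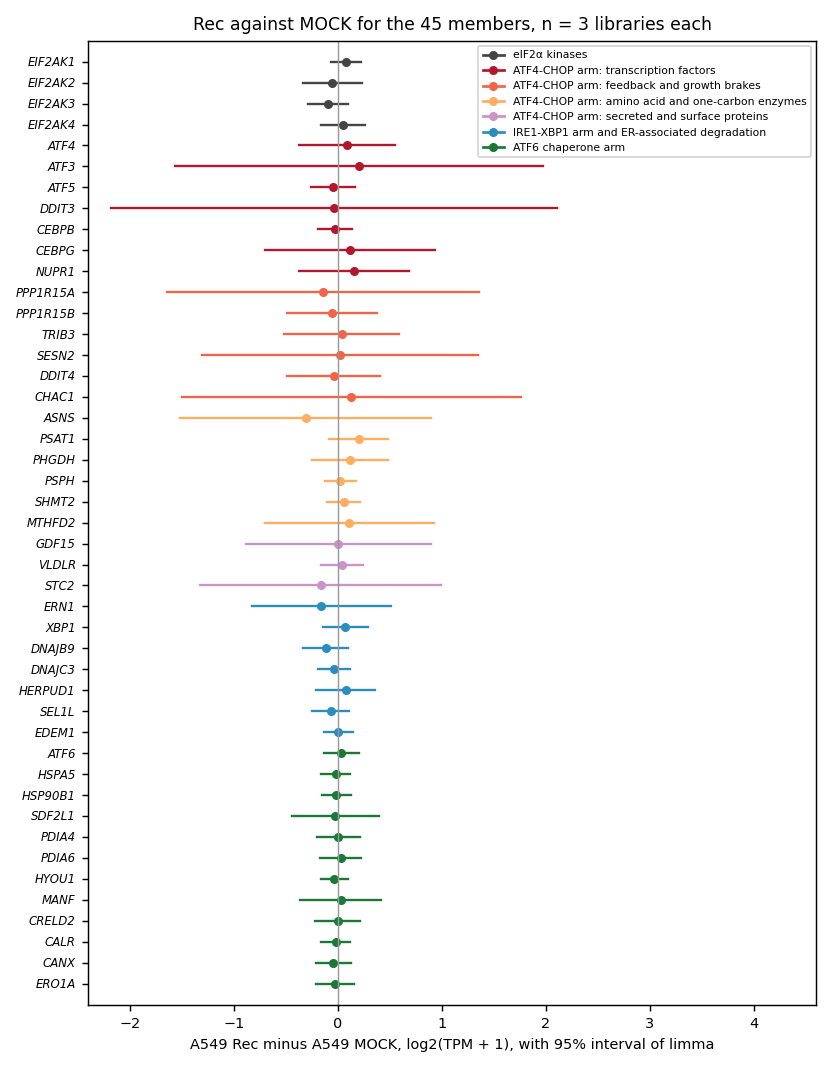
A549 Rec minus A549 MOCK on the log2(TPM + 1) scale for the 45 genes (points) with the 95% interval of limma (lines), n = 3 libraries each, coloured by arm. Every interval crosses 0; that of DDIT3 runs from -2.18 to 2.11 and that of HSPA5 from -0.16 to 0.12.

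The limma intervals were widest for the ATF4-CHOP genes in which replicate 3 stood apart. Same-numbered libraries deviated together most clearly for number 3 (r = 0.297). A549 MOCK replicate 1 went equally with A549 Rec replicate 1 (0.102) and replicate 2 (0.101), so the pairing of numbers 1 and 2 is not settled. Once the replicate number entered the fit as a block, the DDIT3 interval narrowed to -0.60 to 0.53. PSAT1 was then the 1 member with an unadjusted limma p under 0.05 (0.20, interval 0.02 to 0.38, Benjamini-Hochberg adjusted p = 0.931), beside 5.08% of all tested genes.

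Within replicate numbers the direction was not the same. In replicate 3 the level was lower in A549 Rec than in A549 MOCK for 19 of the 22 ATF4-CHOP genes, with a median of -0.23, and by -0.69 for DDIT3 and -1.21 for ASNS. Of all tested genes 60.1% were lower there, with a median of -0.06. Over replicates 1 and 2 the difference was positive for 17 of the 21 of these genes that could be tested (ATF3 failed the filter), with a median of 0.14, where 49.9% of all tested genes were positive. The ATF6 chaperone arm had the opposite signs in these same libraries, with 0 of 12 genes positive over replicates 1 and 2 (median -0.05) and 3 of 12 lower in A549 Rec within replicate 3 (median 0.06). DDIT3 for instance differed by 0.46 in replicate 1, 0.12 in replicate 2 and -0.69 in replicate 3. Whether the replicate numbers differ in this respect was not tested.

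Leaving out both replicate 3 libraries, a fit of 2 against 2 that was added after the data were seen, limma gave an unadjusted p under 0.05 for 8 members. Higher in A549 Rec were CEBPG (0.33, 95% interval 0.20 to 0.46), PSAT1 (0.29, 0.18 to 0.40), MTHFD2 (0.29, 0.18 to 0.40), DDIT4 (0.21, 0.12 to 0.31), PHGDH (0.35, 0.16 to 0.55), ATF4 (0.15, 0.05 to 0.25) and DDIT3 (0.29, 0.0023 to 0.58). Lower in A549 Rec was MANF (-0.15, -0.27 to -0.02). Over all genes tested in this fit 3.25% were higher and 3.4% lower by the same rule. None of the 8 passed Benjamini-Hochberg adjustment, in which their adjusted p values from limma ran from 0.481 to 0.749. All 7 higher genes belong to the ATF4-CHOP arm. CEBPG, for example, was at 49.7 and 49.8 TPM in these A549 MOCK libraries and at 64.1 and 61.4 TPM in these A549 Rec libraries. Whether the arm differed as a whole was not tested. In this fit 17 of its genes were positive, but several were near 0 or lower. These included GDF15 (0.03), PPP1R15A (-0.005), STC2 (-0.02), CEBPB (-0.03) and ATF5 (-0.13).

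Of the 31 other ATF4 targets, 10 were higher and 1 lower in A549 Rec in the same fit, at an unadjusted limma p under 0.05. Over all genes tested in that fit 3.25% were higher and 3.4% lower. With all 6 libraries 0 of the 31 were higher and 1 lower by this rule, beside 195 higher and 261 lower of 17999 tested genes. The 1 lower target with all 6 libraries was CTH, the cystathionine lyase that makes cysteine. It was at 21.1, 19.5 and 21.5 TPM in A549 MOCK and 16.7, 16.5 and 17.3 TPM in A549 Rec. Its difference was -0.28, it was lower in every A549 Rec library than in any A549 MOCK library, and it did not pass adjustment (limma, adjusted p = 0.9995).

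**Figure D5:**
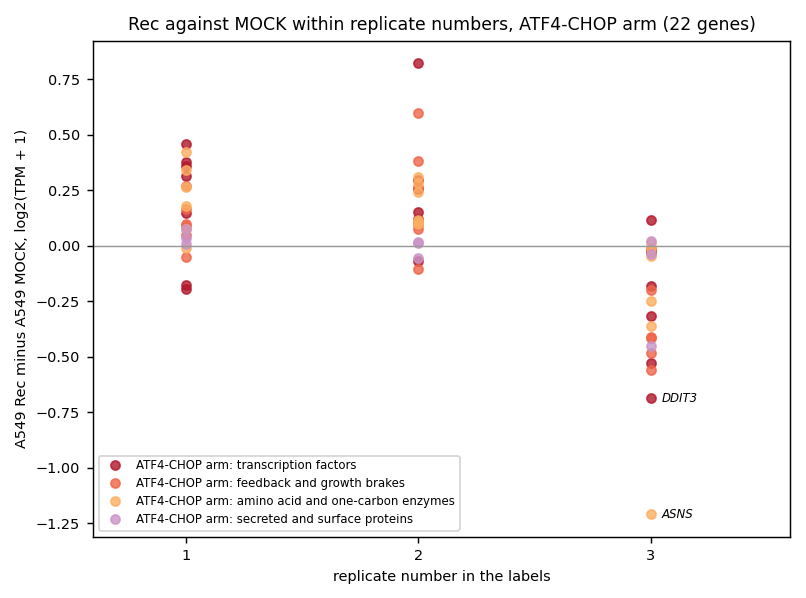
A549 Rec minus A549 MOCK on the log2(TPM + 1) scale within each replicate number (x axis), 1 point for each of the 22 genes of the ATF4-CHOP arm, coloured by role. In replicate 3 the ATF4-CHOP genes lie mostly below 0, with DDIT3 at -0.69 and ASNS at -1.21, and in replicates 1 and 2 mostly above it.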

How the data were processed

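Bulk RNA was sequenced in 3 A549 MOCK and 3 A549 Rec libraries. The authors trimmed reads (FastQC 0.11.7 and Trimmomatic 0.38 per the labels), aligned them with HISAT2 2.1.0, counted genes with featureCounts 1.6.3 and deposited 1 matrix of TPM; strand setting, treatment of multi-mapping reads and annotation release are not given in the sources used here. The processing notes list GRCm38 and mm10, but the methods name GRCh38, the identifiers are human, and 58192 of 58207 identifiers shared with GENCODE v44 lie at overlapping GRCh38 positions, so coordinates are GRCh38 as the file gives them. No column of the matrix was left unmatched to a sample.

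The deposited TPM were rescaled to 1000000 without the 37 chrM genes. Genes at 1 or more in at least 3 of 6 libraries (17999) were tested on log2(TPM + 1) with limma 3.58.1 (R 4.3.3, lmFit and eBayes with trend, two-sided), with Benjamini-Hochberg adjustment over all of them; a fold change on this scale understates that of low genes. Replicate 3 was compared with replicates 1 and 2 in each group, as a description. Reads were recovered from steps in the TPM values by choosing gene lengths that make them whole (99.97% of detected genes), so their wholeness is no test. The recovered reads came to 15177371 to 18564988 per library, chrM genes included.

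Same-numbered libraries deviated together (r = 0.102, 0.147 and 0.297 over 17999 genes for numbers 1, 2 and 3), but A549 MOCK 1 with A549 Rec 2 reached 0.101. Deviations were taken from the mean of each group, so a shift shared by replicate 3 alone raises the values for numbers 1 and 2. The main fit did not pair the numbers, and the labels give no reason for pairing. Pairs were used only in the block and in the differences within numbers. Alternatives were other scalings, pseudocount 0.1, no filter, no trend, the block, each library left out and, chosen after seeing the data, voom on recovered reads and both replicate 3 libraries left out. The fitting was tested on simulated data.

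Members and lists were chosen with earlier results of these data known. Values in every library are given for members outside the other 4 libraries by at least 0.5 in both groups, for the 3 smallest limma p values and for ATF4, DDIT3, XBP1, ATF6, HSPA5 and EIF2AK3; other members shown so (DDIT4, ASNS, MANF and SDF2L1 among them) were picked after their values were seen. Of each other list, the 2 genes with the largest replicate 3 difference and the 1 with the smallest p were eligible to be named.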

Additional observations from a re-analysis of the deposited data

Results flagged for a closer look

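In 3 members the replicate 3 library moved in opposite directions in the 2 groups, above both other libraries in one and below both in the other; the difference between the groups was not tested. DDIT4 (REDD1) was 0.70 higher in A549 MOCK and 0.07 lower in A549 Rec on the log2 scale, which differ by 0.77. PHGDH was 0.28 higher in A549 MOCK and 0.44 lower in A549 Rec, which differ by 0.72. EIF2AK1 (HRI) was 0.13 lower in A549 MOCK and 0.03 higher in A549 Rec, a difference of -0.16. With 3 libraries a group, no library could be examined as an outlier of its own group.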

How the results depend on the processing

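The count of members with an unadjusted limma p under 0.05 for A549 Rec against A549 MOCK was 0, and it stayed 0 in 12 of 18 alternatives. It was 1 under median-of-ratios scaling, 1 with the replicate block and 1 with the block on TPM as deposited (PSAT1 each time), 4 with the replicate block and voom on recovered reads (PPP1R15A, STC2, PSAT1 and ERN1), and 8 with both replicate 3 libraries left out. By the same rule these fits called, in that order, 472 of 17999, 914 of 17999, 715 of 17408, 1039 of 21414 and 1201 of 18067 genes. Leaving out 1 library at a time, the count of members ran from 0 to 6. The 6 came without A549 MOCK replicate 3 (MTHFD2, PSAT1, MANF, CEBPG, DDIT4 and NUPR1), beside 751 of 17507 genes, and the cause was not tested. In the fits on TPM the block changed no call of a member other than PSAT1. With voom on recovered reads the count was 0 without the block and 4 with it. In that block fit PPP1R15A (-0.19), STC2 (-0.20) and ERN1 (-0.18) were lower in A549 Rec, and PSAT1 (0.21) was higher. None of these passed adjustment: the smallest adjusted p of limma over the alternatives was 0.481. The count of all genes past the adjusted threshold and the fold change was 1, and 7 without the trend, 5 with block and voom, 2 without both replicate 3 libraries, and 0 where RCVRN was removed or A549 Rec replicate 1, 2 or 3 was left out. The DDIT3 difference turned from -0.04 to 0.29 with both replicate 3 libraries left out and ran from -0.68 (without A549 Rec replicate 3) to 0.93 (without A549 MOCK replicate 3) with 1 library left out. The 11 members high in replicate 3 became 7 on TPM as deposited and 11 to 16 with 1 library left out. The 16 came without A549 Rec replicate 3, where the rule was looser because it asked for 0.5 in A549 MOCK alone. The XBP1 replicate 3 difference reversed to -0.11 on TPM as deposited. There the median difference of all tested genes was -0.18 against 0.08, the ATF4-CHOP arm had 13 above and 5 below, and its median was 0.27; under median-of-ratios scaling and quantile normalization that median was 0.48 and 0.63. Low reads limit ATF3 and ASNS (2 to 28 reads in replicates 1 and 2).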
